A study of Mus musculus with 12 samples.

Results

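The genes followed here encode 8 receptors and antigens of the neutrophil surface, namely Csf3r, Cxcr2, Fpr1, Fpr2, Clec4d, Clec4e, Trem1 and Ly6g. They were chosen by name, as neutrophil genes, from the 32498 named entries of the expression files, with earlier results of these data known. Of the 8, 7 passed the filter on low values that left 16847 genes to test. RNA sequencing was carried out on tongue tissue of C57BL/6 mice, with 1 library per sample. All 12 samples came from mice purchased at 5 weeks of age that received 100 µg/mL of 4-nitroquinoline 1-oxide (4NQO), a carcinogen that causes lesions of the oral epithelium, for 16 weeks. The 6 vehicle samples are from mice given the carrier alone, and the 6 GA samples are from mice given gallic acid (GA), a plant phenolic acid, at 100 mg/kg by oral gavage 5 times per week from week 4 of the carcinogen. No library without the carcinogen was analysed here, so levels in healthy tongue are not known. The labels describe the material as tumor and tumor-associated, and the sex of the mice is not given in the sources used here.

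Neutrophils are short-lived white cells that leave the blood in response to bacteria, injury or tumor-derived signals. Their release from bone marrow is driven by granulocyte colony-stimulating factor acting on the receptor encoded by Csf3r. Their migration follows CXC chemokines, sensed by Cxcr2, and formylated peptides, sensed by the receptors of the Fpr family. Once in tissue, the lectins Clec4d and Clec4e and the immunoglobulin-like receptor Trem1 signal through adaptor chains that recruit the kinase Syk, and they raise the output of chemokines and cytokines. Ly6g is the antigen most often used to recognise mouse neutrophils by antibody.

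The libraries held between 18039779 and 25190020 reads, as recovered from the deposited values, and Spearman correlations between libraries of a group ranged from 0.89 to 0.97. Summed keratinocyte genes (13752 to 39219 FPKM, a read number corrected for gene length and library size) and summed skeletal muscle genes (1213 to 10261 FPKM) were present in every library, as in tongue. Genes of the tongue glands were abundant in vehicle 3, vehicle 5 and GA 2 (8852 to 27114 summed FPKM) and nearly absent elsewhere (at most 0.613). Y-linked genes were expressed in 4 of 6 vehicle libraries and in 1 of 6 GA libraries, so sex and treatment are partly confounded. Values below are FPKM scaled between libraries by a trimmed mean of M values, and levels on a log scale are log2(scaled FPKM + 0.1), which understates the change of low genes. A change was called at an adjusted p below 0.1 and a log2 fold change of at least 0.58 in either direction.

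Promoters of these genes were read to show what letters they share. RefSeq start sites on GRCm38.p6 were found for all 8 genes. The core of the binding motif of PU.1, the factor that specifies myeloid cells, was searched as GAGGAA on both strands, in the 250 bases before and 50 bases after the start. It was present in 7 of 8 members, against 28.3% of 32851 promoters, and Fpr1 was the member without it. In the sequences that follow, which stop before the first base of the gene in GENCODE, capitals mark this word or its reverse complement.
Cxcr2, chr1:74153744-74153988, plus strand: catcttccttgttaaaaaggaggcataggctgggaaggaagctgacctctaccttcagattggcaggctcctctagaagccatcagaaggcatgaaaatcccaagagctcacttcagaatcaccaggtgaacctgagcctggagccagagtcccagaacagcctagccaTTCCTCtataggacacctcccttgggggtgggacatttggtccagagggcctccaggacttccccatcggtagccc
Fpr1, chr17:17883941-17884189, minus strand: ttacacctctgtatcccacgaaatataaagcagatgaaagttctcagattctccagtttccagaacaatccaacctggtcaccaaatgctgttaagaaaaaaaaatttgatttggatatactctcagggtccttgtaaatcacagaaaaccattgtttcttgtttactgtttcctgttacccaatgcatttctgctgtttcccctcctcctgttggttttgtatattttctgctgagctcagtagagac
Clec4d, chr6:123261857-123262106, plus strand: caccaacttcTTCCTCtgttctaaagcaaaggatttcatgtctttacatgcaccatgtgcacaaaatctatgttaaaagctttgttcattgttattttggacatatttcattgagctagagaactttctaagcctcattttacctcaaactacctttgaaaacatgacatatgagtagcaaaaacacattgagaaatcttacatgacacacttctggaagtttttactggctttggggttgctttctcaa
Clec4e, chr6:123289872-123290121, minus strand: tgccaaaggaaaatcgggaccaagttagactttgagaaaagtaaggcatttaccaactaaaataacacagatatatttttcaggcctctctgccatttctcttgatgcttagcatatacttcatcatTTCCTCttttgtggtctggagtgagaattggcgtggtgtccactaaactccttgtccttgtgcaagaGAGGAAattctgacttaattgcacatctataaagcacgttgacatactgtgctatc
Trem1, chr17:48232489-48232738, plus strand: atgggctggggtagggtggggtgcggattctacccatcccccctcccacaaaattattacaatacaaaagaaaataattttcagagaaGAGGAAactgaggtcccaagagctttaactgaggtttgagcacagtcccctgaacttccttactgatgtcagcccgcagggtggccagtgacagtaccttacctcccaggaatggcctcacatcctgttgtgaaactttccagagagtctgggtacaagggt
In Clec4e the word occurred on both strands, at positions -123 and -56 from the start. In Clec4d it also occurred on both strands, at -240 in the printed bases and at 8 and 40 after the start. In Cxcr2 it lay at -81 and at 7 after the start, and in Trem1 at -162. The longer form AGGAAGT, which overlaps GAGGAA in its letters, was found in Trem1 and Ly6g and in 9.35% of promoters. TTNNGNAA, a form of the motif of the C/EBP factors of granulocyte differentiation, was found in 6 members (not in Csf3r or Cxcr2) and in 40.7% of promoters. A form of the NF-kB motif was found in Csf3r, Cxcr2 and Ly6g and in 50.8% of promoters, TATAAA in Fpr1, Fpr2, Clec4e and Ly6g and in 13.6%, and the AP-1 form TGANTCA in no member and in 7.81%. These matches describe letters, set against all promoters and not against those of other neutrophil genes. Binding was not measured, and a link between the letters and the levels was not tested.

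The receptor genes were high in the same few libraries of both groups. In each of the 7 tested members the highest library was vehicle 5, followed by vehicle 4 and then GA 2. Of all 16847 genes tested, 332 (1.97%) had these libraries as their 3 highest. The members were chosen with earlier results of these data known, so this share gives scale and is no test. The summed level of the 8 genes was 59.0 FPKM in vehicle 5, 26.3 in vehicle 4 and 15.9 in GA 2, and it lay between 0.839 and 2.42 in the other 9 libraries. Because these libraries are known only from the genes themselves, no test of these 3 libraries against the other 9 was made. In bulk tissue, fewer neutrophils and less RNA per neutrophil cannot be told apart. Tongue gland genes were high in vehicle 5 and GA 2 but not in vehicle 4 (0.0645 summed FPKM), and vehicle 3 had gland genes (22856) with a summed receptor level of 2.42, and the part of gland tissue in the receptor levels was not tested.

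**Figure D1:**
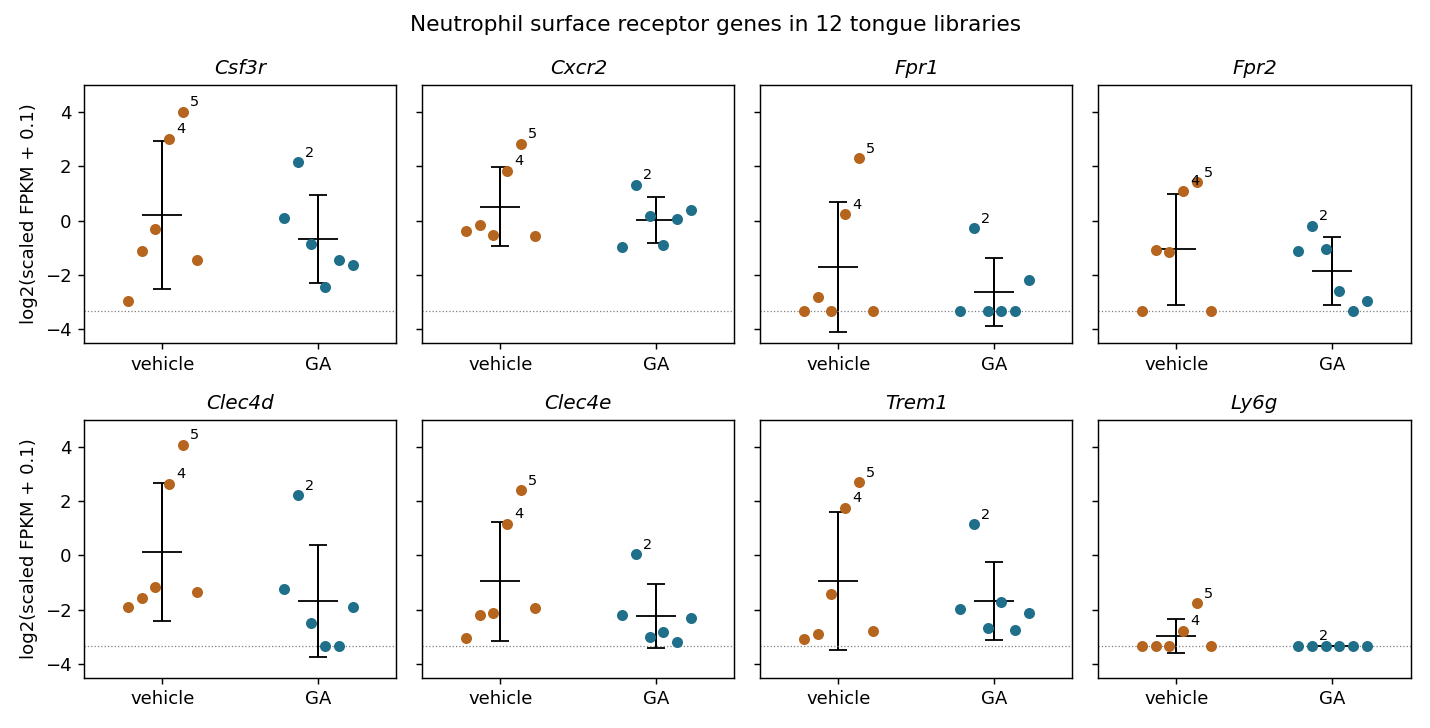
Level of each receptor gene in each library, as log2(scaled FPKM + 0.1), with 6 vehicle and 6 GA libraries per gene. Points are libraries, the black bar is the group mean with 1 SD, the dotted line is a value of 0 FPKM, and numbers mark vehicle 4, vehicle 5 and GA 2, which stand above the other 9 libraries in every gene but Ly6g.

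Csf3r, the receptor for granulocyte colony-stimulating factor (ENSMUSG00000028859.14, GRCm38 chr4:126024550-126044440, plus strand), had the highest mean of the 8 genes. Its level ran from 0.0300 through a median of 0.538 to 16.0 FPKM in the vehicle libraries. In the GA libraries it ran from 0.0841 through a median of 0.364 to 4.38. The groups overlapped, and the vehicle median stood above 4 of 6 GA libraries. The means were 4.24 ± 6.54 (SD, n = 6) with vehicle and 1.07 ± 1.65 (SD, n = 6) with GA. By limma the log2 fold change was -0.89 with a standard error of 1.16, and the exact two-sided permutation test gave p = 0.502. In reads, Csf3r went from 2 in vehicle 1 to 1287 in vehicle 5, and 89.9% of its 2586 reads came from the 3 highest libraries.

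Cxcr2, the receptor for the neutrophil-attracting CXC chemokines (ENSMUSG00000026180.8, chr1:74153989-74161246, plus strand), had the smallest spread of log2 levels in both groups among the 7 tested members. Vehicle libraries ran from 0.581 through 0.737 to 7.04 FPKM, and GA libraries from 0.412 through 0.989 to 2.40. Here 4 of 6 GA values exceeded the vehicle median, so the order of the medians was the opposite of that of the means (2.20 ± 2.63 for vehicle against 1.08 ± 0.727 for GA, SD, n = 6 per group). Its log2 fold change was -0.49 with a standard error of 0.62 (exact permutation p = 0.494). It was not close to 0 in any library, with 27 to 477 reads in every library, and GA 2 was 1.96 times the next library, close to the 2.01 times of Fpr2 and against 4.47 to 13.0 times in the other 5 tested members.

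Fpr1, the receptor with high affinity for bacterial formyl peptides (ENSMUSG00000045551.7, chr17:17876471-17883940, minus strand), was at 0 in 7 of 12 libraries. In those 7 libraries a count of 0 allows up to 0.0948 to 0.124 FPKM, the value of 3 reads, depending on the library. Vehicle 5 had 4.83 FPKM (141 reads), vehicle 4 had 1.08 (33 reads) and GA 2 had 0.727 (22 reads). Outside these, GA 6 had 4 reads and vehicle 2 had 1. The difference on the log2 scale was -0.92 with a standard error of 1.00 (exact permutation p = 0.5). As 3 libraries held 97.5% of its 201 reads, the group means rest on those libraries.

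Fpr2, a broader formyl peptide receptor that also binds serum amyloid A and annexin A1 (ENSMUSG00000052270.7, chr17:17887824-17893952, plus strand), was less concentrated, with 78.5% of 200 reads in the 3 highest libraries. Vehicle libraries ran from 0 through 0.367 to 2.56 FPKM and GA libraries from 0 through 0.215 to 0.777. The next library after GA 2 was GA 3, with 0.387 FPKM, and 4 of 6 GA values were under the vehicle median. GA differed from vehicle by -0.81 on the log2 scale, with a standard error of 0.89 (exact permutation p = 0.435). Of the 50-base words of its transcripts, 31.5% also occur in transcripts of other genes, among them the neighbouring Fpr3, so with only unique reads counted the level of Fpr2 is uncertain. The same share was 10.7% for Csf3r, 6.68% for Cxcr2 and 0.0784% for Fpr1. The 5 other genes of the family, Fpr3, Fpr-rs3, Fpr-rs4, Fpr-rs6 and Fpr-rs7, were at 0 in all libraries. Fpr3 shares words with Fpr2 and overlaps 3.70% of its exon bases, so a 0 for Fpr3 need not mean no expression. Sequence shared among the other relatives was not examined.

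Clec4d, a C-type lectin that binds fungal and mycobacterial glycolipids (ENSMUSG00000030144.4, chr6:123262111-123275265, plus strand), had the largest difference in log2 level between the groups among the 7 tested members. Its vehicle libraries ran from 0.170 through 0.322 to 16.7 FPKM and its GA libraries from 0 through 0.124 to 4.56. GA 2 was 13.0 times the next library, vehicle 3, the widest such step among the 7 tested genes. In the GA group 5 of 6 values were under the vehicle median, and GA 4 and GA 5 were at 0. The means were 3.99 ± 6.67 (SD, n = 6) with vehicle and 0.855 ± 1.82 (SD, n = 6) with GA. The difference was -1.80 on the log2 scale with a standard error of 1.205 (exact permutation p = 0.188). Without GA 2 the difference was -2.58 (exact permutation p = 0.0498, unadjusted) and without vehicle 5 it was -1.01 (p = 0.420, exact permutation). GA 2 held the highest GA value of Clec4d, so leaving it out must widen the difference. The p without GA 2 was the lowest of 12 fits that each left out 1 library.

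Clec4e, also called Mincle, is the neighbouring lectin that detects mycobacterial cord factor and the nuclear protein SAP130 released by dying cells (ENSMUSG00000030142.10, chr6:123281789-123289870, minus strand). Levels ran from 0.0217 through 0.146 to 5.20 FPKM with vehicle and from 0.00980 through 0.0721 to 0.931 with GA. As with Clec4d, 5 of 6 GA values were under the vehicle median, and the groups overlapped. With a standard error of 0.92, the log2 fold change was -1.29 (exact permutation p = 0.216). Clec4d and Clec4e had no exon overlap with another gene and no 50-base word in the transcripts of other genes, although they lie side by side.

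Trem1, an immunoglobulin-like receptor that amplifies inflammatory responses through the adaptor Tyrobp (ENSMUSG00000042265.13, chr17:48232768-48246924, plus strand), ran from 0.0181 through 0.159 to 6.42 FPKM with vehicle. With GA it ran from 0.0489 through 0.142 to 2.13. The group medians were close, and the means (1.68 ± 2.65 and 0.453 ± 0.822, SD, n = 6 each) differed mainly in their highest libraries. On the log2 scale GA was at -0.74 against vehicle with a standard error of 1.08 (exact permutation p = 0.574), and without vehicle 5 the difference was -0.0044.

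Ly6g (ENSMUSG00000022582.4, chr15:75155240-75159126, plus strand) was near the limit of detection, although it is the marker by which mouse neutrophils are usually recognised. It had 4 reads in vehicle 5 (0.194 FPKM), 1 read in vehicle 4 (0.0465 FPKM) and none in the other 10 libraries, including GA 2. A count of 0 allows 0.125 to 0.175 FPKM. It fell under the filter on low values and was not tested across all genes, and its exact permutation p was 0.455. Only 0.448% of its 50-base words occur in transcripts of other genes. Among related genes of the same family, Ly6d (976 FPKM over 12 libraries), an epithelial surface antigen, and Ly6a (139 FPKM) were abundant.

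None of the 7 tested members was called between GA and vehicle, where the fit called 0 of 16847 genes (0%). The adjusted p was 0.999987 for each (limma, Benjamini-Hochberg), the lowest of any gene. At an unadjusted limma p below 0.05 there were 0 members and 364 genes (2.16%), of which 176 were lower with GA (1.04% of those tested). With limma-voom on the recovered reads, 0 of 16108 genes were called, and 329 (2.04%) had an unadjusted p below 0.05. All 7 members had lower mean log2 levels with GA, against 49.1% of all genes tested, and 6 of 7 had a log2 fold change of -0.58 or lower, against 4.2% of all genes. The median of the members was -0.89, and that of all genes was 0.0042. The 7 genes share the same high libraries, so they do not count as 7 separate observations.

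**Figure D2:**
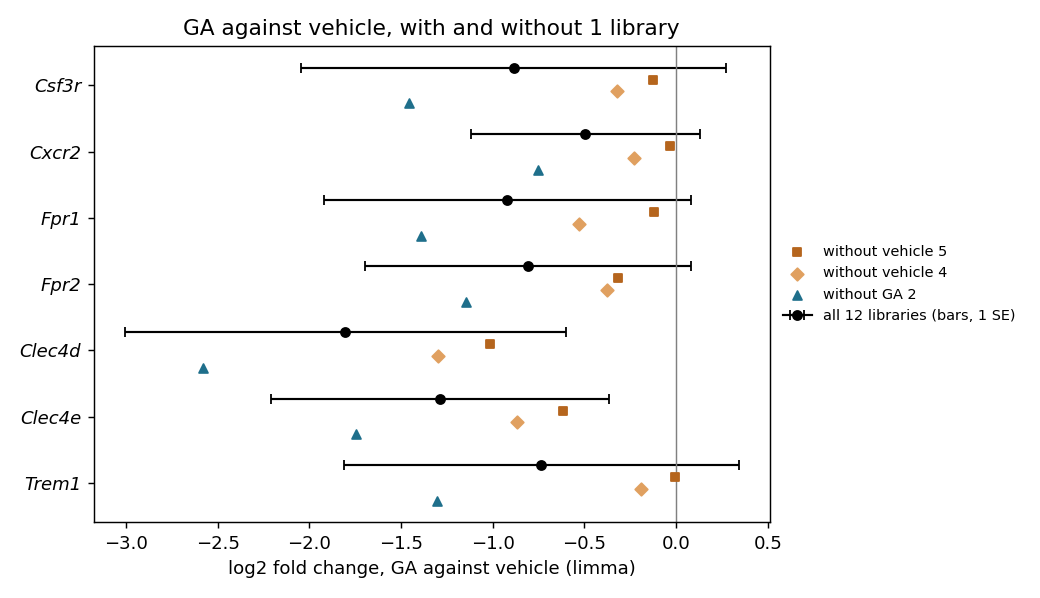
The log2 fold change of each tested receptor gene, GA against vehicle (limma, on log2(scaled FPKM + 0.1)). Black points with bars of 1 standard error use all 12 libraries, squares leave out vehicle 5, diamonds leave out vehicle 4 and triangles leave out GA 2; all points are at or below 0, those without vehicle 5 are nearest to it (median -0.12) and those without GA 2 are farthest from it (median -1.39).

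The size of this difference depended on single libraries. The members' median log2 fold change was -0.12 without vehicle 5, -0.38 without vehicle 4 and -1.39 without GA 2, and all 7 stayed lower with GA in each of these fits. Without vehicle 5, Trem1 (-0.0044), Cxcr2 (-0.030) and Fpr1 (-0.12) were close to 0. In the 9 libraries without gland genes, which hold vehicle 4 but neither vehicle 5 nor GA 2, the median was -0.63. Exact permutation p ran from 0.0714 for Clec4d to 0.937 for Trem1. In the 7 libraries without Y-linked transcripts, 2 vehicle and 5 GA, the median was -1.98. The 2 vehicle libraries were vehicle 5 and vehicle 6, with summed receptor levels of 59.0 and 1.35 FPKM, so 1 of them is the highest library of all. The libraries with Y-linked transcripts held only 1 GA sample, which gives no comparison. A fit with a term for Y-linked transcripts gave a median of -1.22. With a term for tongue gland genes the median was -0.54. This term and the fits on libraries without gland genes and on libraries without Y-linked transcripts were not planned in advance.

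Shares of the summed level were close for some receptor genes in the 3 highest libraries and less so for others. Csf3r made 27.2% of the summed FPKM in vehicle 5, 30.5% in vehicle 4 and 27.5% in GA 2, and Clec4d made 28.3%, 23.4% and 28.7%. The share of Cxcr2 was 11.9%, 13.3% and 15.1% in the same order, while in the other 9 libraries it ran from 17.5% to 74.2%. Trem1 made 10.9%, 12.5% and 13.4%. Fpr1 made 8.19% in vehicle 5, 4.12% in vehicle 4 and 4.57% in GA 2. The share of Fpr2 was 4.33%, 7.79% and 4.89%, and that of Clec4e was 8.82%, 8.17% and 5.86%. In the libraries with few reads the shares were less certain, since Clec4d, for example, rested on 11 reads or fewer there.

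**Figure D3:**
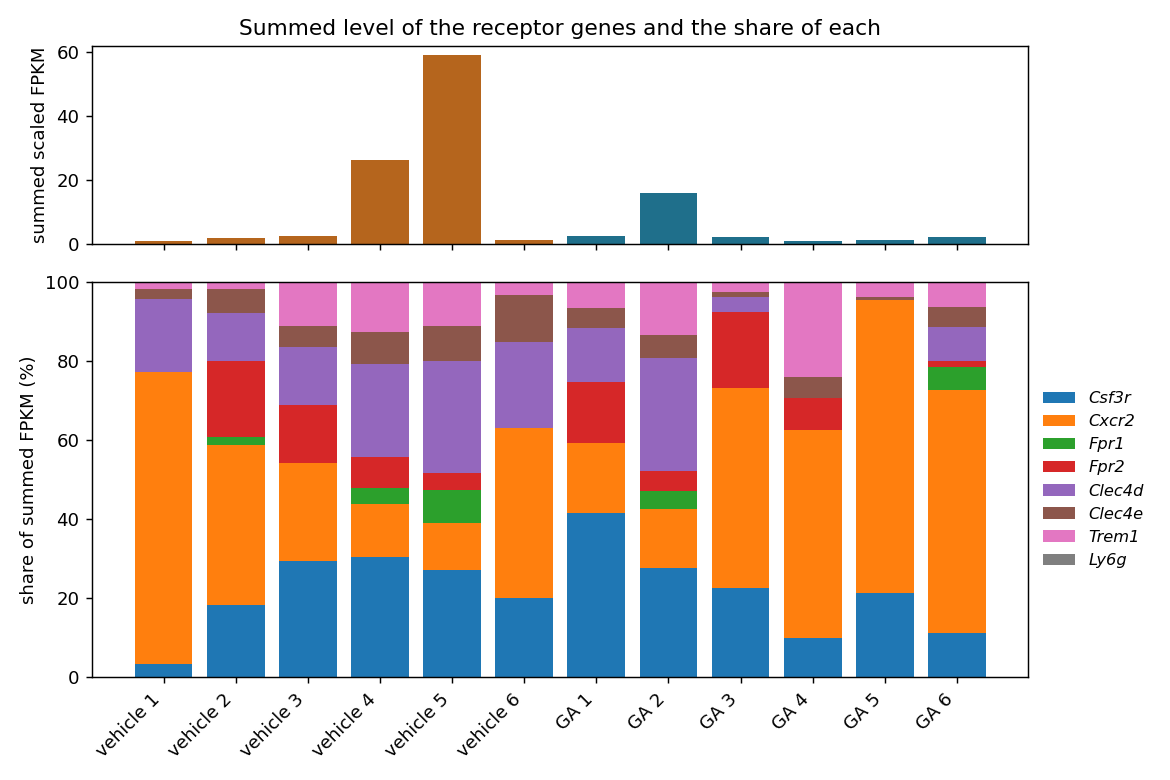
Upper panel, summed scaled FPKM of the 8 receptor genes in each library (brown, vehicle; blue, GA). Lower panel, share of each gene in that sum; Cxcr2 takes 11.9% to 15.1% in vehicle 4, vehicle 5 and GA 2 and 17.5% to 74.2% in the other libraries.

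In order of mean level the genes were Csf3r (2.65 FPKM), Clec4d (2.42), Cxcr2 (1.64), Trem1 (1.07), Clec4e (0.751), Fpr2 (0.5802), Fpr1 (0.567) and Ly6g (0.02002). Neighbours in this order mostly did not keep their places. Csf3r was above Clec4d in 8 of 12 libraries, and Clec4d was above Cxcr2 in 3 of 12, although its mean was larger. Cxcr2 was above Trem1 in 12 of 12, whereas Trem1 was above Clec4e in 9 and Clec4e above Fpr2 in 7.

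Relative to other neutrophil genes of the same library, no receptor passed the test between the groups. The reference was the mean log2 level of Retnlg, Mmp8, Mmp9, Slfn4, Hdc, Padi4, Acod1 and Il1b, which are granule, enzyme and cytokine genes of neutrophils, some of them shared with other myeloid cells. This reference was 2.86 in vehicle 5, 1.79 in vehicle 4 and 0.98 in GA 2, and between -2.25 and -0.90 in the other 9 libraries. For Csf3r the log2 ratio to it spanned 1.98 over the 12 libraries, where its level spanned 6.95. Clec4e followed the reference most closely, with a span of 0.92 against 5.59 for its level. The difference of this ratio between GA and vehicle was -0.31 for Clec4e, the lowest p of the 8 exact permutation tests (p = 0.0736, unadjusted). It was -0.83 for Clec4d (p = 0.141, exact permutation), whose ratio was -0.52 ± 1.03 with GA and 0.31 ± 0.67 with vehicle. Both depended on single libraries, and the p-values that follow are unadjusted and picked from 12 fits per gene that each left out 1 library. Without GA 2, the highest library of the Clec4d ratio, the Clec4d difference was -1.18 (exact permutation p = 0.0195). Without vehicle 2 that of Clec4e was -0.42 (exact permutation p = 0.0108) and without vehicle 3 it was -0.38 (exact permutation p = 0.0433), while with a pseudocount of 1 it was 0.057. For Csf3r it was 0.089, for Cxcr2 0.48, for Fpr1 0.055, for Fpr2 0.17 and for Trem1 0.24, with exact permutation p between 0.323 and 0.868. Ly6g gave 0.62 (exact permutation p = 0.379), a value fixed by the reference, since 10 of its 12 levels were 0.

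Of 11 tested genes listed as ligands of these receptors, 6 were highest in the same libraries. The list took Sap130 by its symbol, and that gene does not encode the SAP130 protein bound by Clec4e. No value for the gene of that protein is given here. Csf3, the ligand of Csf3r, had 3.69 FPKM in vehicle 5, 2.37 in vehicle 4 and 0.990 in GA 2, and at most 0.275 elsewhere. Cxcl2, a ligand of Cxcr2, had 17.9, 11.6 and 3.45 in the same order and at most 0.786 elsewhere. Cxcl5, another Cxcr2 ligand and largely a product of epithelial cells, had 65.6, 33.3 and 38.3 and reached 6.88 in the remaining libraries. Saa3, which encodes an acute-phase protein of the serum amyloid A family, had 110, 64.2 and 30.2, and at most 9.07 elsewhere. Anxa1 (384 FPKM on average), Mif (186) and Sap130 (2.98) did not have these 3 libraries as their highest. In the comparison of GA with vehicle, 10 of 11 tested genes of this list had lower mean log2 levels with GA, Sap130 being the other. Of all genes tested, 49.1% were lower. The median of the 11 genes was -1.10 on the log2 scale, and 0 were called. It ran from -1.48 (without GA 2) to -0.64 (without vehicle 5) with 1 library left out. For Anxa1 the difference was -0.14 on that scale, while its mean FPKM was higher with GA (397 against 371). The largest difference in log2 level was that of Cxcl5, at -2.68 with a standard error of 1.5.

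**Figure D4:**
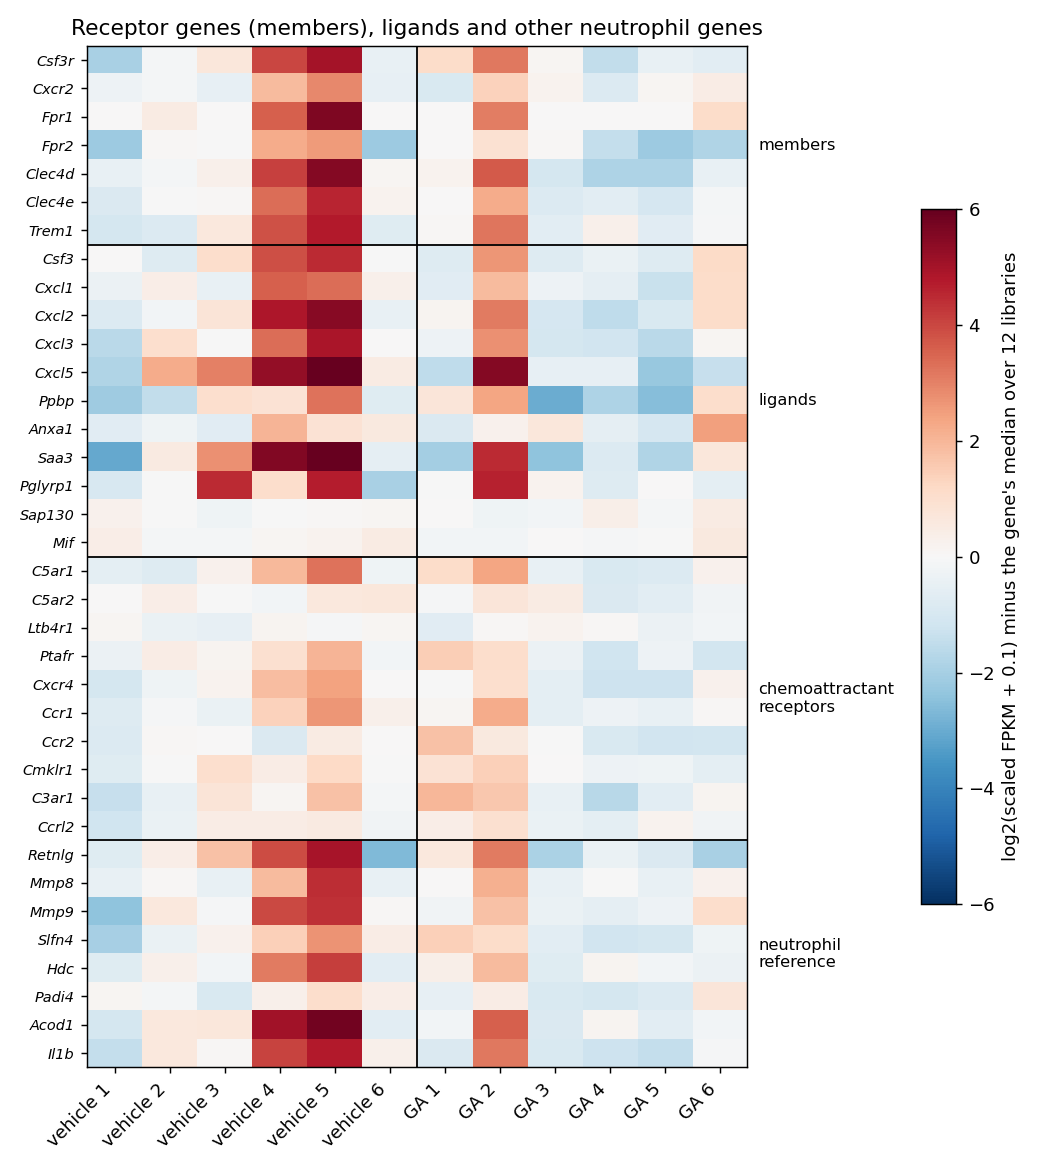
Heat map of log2(scaled FPKM + 0.1) minus the median of each gene over the 12 libraries, with vehicle libraries left of the vertical line. Rows are the 7 tested receptor genes (members), 11 genes of the ligand list, 10 further chemoattractant receptors and the 8 genes of the neutrophil reference. Columns vehicle 4, vehicle 5 and GA 2 are red in the receptor genes, in Csf3, Cxcl1, Cxcl2, Cxcl3, Cxcl5 and Saa3 and in most of the reference, while Sap130, Mif and Ltb4r1 vary little.

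Adaptors and kinases downstream of the receptors were less concentrated in these libraries. Tyrobp, the adaptor of Trem1, had 38.5 FPKM in vehicle 5, 19.8 in GA 2 and 16.4 in vehicle 4, and 14.4 in the next library. Fcer1g, the adaptor chain of the Clec4 lectins, had 24.1 in vehicle 5 and 17.0 in GA 2, and 8.90 on average. Both are also expressed by macrophages and mast cells. The 3 high libraries were the highest in 6 of 17 adaptor genes, Tyrobp, Syk, Lyn, Fgr, Gnai2 and Socs3. All 17 had lower mean log2 levels with GA, against 49.1% of all genes tested, with a median of -0.29 and 0 called. That median ran from -0.36 (without GA 2) to -0.12 (without vehicle 5) with 1 library left out. Jak2, a kinase of cytokine receptors (-0.35), and Bcl10, which relays signals from Card9 (-0.26), had an unadjusted limma p below 0.05, and both had an adjusted p of 0.999987. They are 2 of 17, where 364 of all 16847 genes tested (2.16%) had such a p. Of the other lists, the B cell gene Cd79a also had such a p, and it was higher with GA (1.04).

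Other chemoattractant receptors followed in part. Of 10 tested, C5ar1 (complement C5a), Cxcr4, Ccr1 and Ccrl2 had the same 3 highest libraries. C5ar1 had 8.16 FPKM in vehicle 5, 4.34 in GA 2, 3.21 in vehicle 4 and 1.76 in the next library. Ltb4r1, the leukotriene B4 receptor, was even across the libraries, at 18.7 ± 3.44 (SD, n = 6) in vehicle and 18.2 ± 3.93 (SD, n = 6) in GA libraries. Mean log2 levels with GA were lower for 7 genes of this list and higher for 3, the median was -0.23, and 0 were called. With 1 library left out, the median ran from -0.43 (without GA 2) to 0.073 (without vehicle 5).

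Genomic neighbours and relatives of the members did not all share the pattern. In the Clec4 cluster, Clec4d, Clec4e and Clec4n (dectin-2) had the 3 high libraries on top, and the other 4 tested genes did not. Clec4n had 11.3 FPKM in vehicle 5, 5.20 in vehicle 4, 4.71 in GA 2 and 1.95 in the next library. In the Trem cluster, Trem3 (1.38, 0.792 and 0.930 in vehicle 5, vehicle 4 and GA 2, and 0.0846 in the next library) had the same highest libraries as Trem1, whereas Trem2, a receptor of macrophages, did not. Among the receptors for colony-stimulating factors, Csf2rb and Csf2rb2 joined Csf3r, and Csf1r, the receptor of the macrophage lineage, did not. In the Ly6 family 1 of the 10 tested genes, Ly6c1, had these as its 3 highest libraries, with GA 2 (49.0) above vehicle 5 (47.6) and vehicle 4 (42.3). By mean log2 level with GA, 4 of 7 tested Clec4 genes, 2 of 3 Trem genes, 8 of 10 Ly6 genes and 5 of 6 colony-stimulating factor receptors were lower, and none was called. Without vehicle 5 the median went from -0.45 to -0.16 for Clec4 genes and from -0.47 to 0.077 for Trem genes. For the colony-stimulating factor receptors it went from -0.17 to 0.051. The Ly6 median stayed between -0.21 and -0.12 with any 1 library left out.

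Markers of other cells moved in other ways. Of the neutrophil reference, 6 of 8 genes had the same 3 highest libraries. All 8 had lower mean log2 levels with GA, against 49.1% of all genes tested, with a median of -0.84. With 1 library left out, this median ran from -1.36 (without vehicle 1) to -0.32 (without vehicle 5). Of 11 granule genes of neutrophil precursors, Elane and Ms4a3 were at 0 in all libraries, and 3 were tested, Ltf, Lcn2 and Chil3. Ltf had 83.4 FPKM in vehicle 3, 70.3 in vehicle 5 and 122 in GA 2, the libraries with gland genes, and at most 0.310 elsewhere. Lcn2 ran from 1.92 to 19.5 FPKM with vehicle and from 1.17 to 21.6 with GA. Chil3 reached 10.9 FPKM in vehicle 5. S100a8 and S100a9, which keratinocytes also make, summed to 218 to 2607 FPKM and were highest in vehicle 6. Of 14 monocyte and macrophage genes, 8 had lower and 6 higher mean log2 levels with GA, and their summed level was 430 FPKM in vehicle 5, 341 in GA 2, 296 in GA 1, 206 in vehicle 3 and 119 in vehicle 4. Summed genes of T cells were 0.812 to 3.34 FPKM, of B cells 0.114 to 0.976, of mast cells 7.13 to 51.3 and of eosinophils 0 to 2.10, with the eosinophil gene Epx at 0 in all libraries. Of the precursor list Chil3 had the 3 high libraries on top, and of the macrophage, T cell, B cell, mast cell and eosinophil lists no tested gene did. Their part in the receptor levels was not tested.

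The genes whose levels were ordered most like the mean of the 8 members over the 12 libraries were Nfkbie (Spearman rho = 0.979), an inhibitor of NF-kB, followed by Col5a1 and Col5a3 (0.972 each), which encode chains of type V collagen. Next were Col1a1, Lilrb4b, P3h1 and Slc11a1 (0.965 each), Fxyd5 and Pirb (0.958) and Esyt1 (0.951), out of 12158 genes averaging 1 FPKM or more. Lilrb4b and Pirb encode inhibitory receptors of myeloid cells, and Slc11a1 encodes a metal transporter of phagosomes. Col1a1 had 77.9 FPKM in vehicle 5, 35.6 in vehicle 4, 26.8 in GA 2 and 20.6 in GA 1, a much smaller step than in Clec4d. These values rank the same 12 libraries, which differ in depth and tissue make-up, and they were not tested.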

How the data were processed

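RNA was taken from tongue tissue and sequenced after a SMARTER mRNA-Seq library preparation, per the labels. Alignment by the authors used HISAT2 and mm10, unique reads were counted per gene, and the 12 deposited tables hold FPKM, 1 library each, with 55463 entries. The 22965 entries without a gene name (16.2% to 25.5% of summed FPKM) were left out of the tests.

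FPKM were scaled by a trimmed mean of M values (30% and 5% trimmed), a pseudocount of 0.1 was added, and genes averaging 0.1 FPKM or more were tested with limma 3.58.1 (R 4.3.3, eBayes with trend, group as only factor) with Benjamini-Hochberg adjustment over all genes tested. As the values are FPKM, limma took the place of the count model named in the study's methods. For single members, a two-sided exact permutation test took all 924 assignments of libraries (smallest p 0.00216). The labels do not name separate animals, so p-values measure the spread between these samples.

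Whole reads were recovered from FPKM, exon length (GENCODE M21, less 17.0 to 24.0 bases) and library total. Of values worth up to 8 reads, 97.6% to 98.2% were whole within 0.02 reads. Intervals from reads cover counting error only. limma-voom on these reads was added after seeing the data. On simulated data for the GA comparison with 16847 genes, limma recovered 97, 167 and 188 of 200 genes changed by 1, 2 and 3 on the log2 scale, with 10, 10 and 23 other genes called. The changed genes were picked at random, and values were drawn separately per gene from normal distributions. Values at 0 and high libraries shared between genes, as in the members, were not imitated. Recovery of genes with a spread as wide as that of the members was not measured.

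The members and all gene lists were chosen with earlier results of these data known. Named genes were the members, the ligand and adaptor lists, related receptors that passed the filter, and the 10 genes most like the members. Sequences came from RefSeq promoters on GRCm38.p6. Alternatives were other pseudocounts, filters, scalings, fits and covariates, a replicate block, other reference genes and leaving out each library in turn.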

Additional observations from a re-analysis of the deposited data

Results flagged for a closer look

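In 7 of 40 groups of 6 values (17.5%), 1 library stood apart from the rest of its group by Dixon's ratio of gap to range above its 95% critical value, and chance alone singles out about 1 group in 20. Because the receptor genes share their high libraries, these are not separate events. The ratio describes the same values from which the high libraries are known, and it is no test of them. GA 2 was the highest of the GA libraries in Fpr1 (ratio 0.632), Clec4d (0.6252), Clec4e (0.687) and Trem1 (0.738), with 0.727, 4.56, 0.931 and 2.13 FPKM in that order. It was also the highest GA library in the mean log2 level of the neutrophil reference list (0.689). Relative to that reference, GA 2 was the lowest GA library for Ly6g (0.689). All 6 GA libraries had 0 Ly6g reads, so this repeats the value of the reference list. Vehicle 5 was the highest vehicle library for Ly6g (0.646), which rests on 4 reads. In the vehicle group no tested receptor was singled out, since vehicle 4 lay between vehicle 5 and the rest.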

How the results depend on the processing

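No receptor gene was called in any of 27 alternatives, and every tested member stayed lower with GA in each of them. With a mean of at least 1 FPKM required, 4 of 4 tested members were lower, and without a filter 8 of 8. Over all genes, 0 to 1 genes were called when 1 library was left out, and the 1 gene was Gm25290 without vehicle 4, which had at most 5 reads in any library. The members' median log2 fold change ran from -1.39 (without GA 2) to -0.125 (without vehicle 5), and from -1.98 to -0.507 over the other alternatives. Samples with the same replicate number did not deviate together (correlations -0.372 to 0.0798), and a fit with the replicate number as a block called 0 genes and gave the same median of -0.885, so it changed no call.

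The ratios to the neutrophil reference were less settled. With a pseudocount of 1, the GA minus vehicle difference was -0.0518 for Csf3r and 0.0572 for Clec4e, and with 0.01 it was -0.381 for Fpr1 and -0.160 for Ly6g, each the opposite sign. With S100a8 and S100a9 as the reference it was -0.151 for Csf3r, -0.185 for Fpr1, -0.0743 for Fpr2 and -0.000846 for Trem1. Keratinocytes also make these 2 proteins, and 0 of the 2 genes had the 3 high libraries as highest. That reference therefore does not stand for neutrophils alone. Leaving out 1 library gave -0.128 to 0.335 for Csf3r, -0.0990 to 0.249 for Fpr1, -0.172 to 0.362 for Fpr2 and -0.00323 to 0.386 for Trem1. Clec4d fell below an exact permutation p of 0.05 without GA 2 (difference -1.18, p = 0.0195), and Clec4e did so without vehicle 2 (-0.418, p = 0.0108, exact permutation), without vehicle 3 (-0.377, p = 0.0433, exact permutation) and with a pseudocount of 0.01 (-0.869, p = 0.0346, exact permutation). These p-values are unadjusted and were picked, for each gene, from 12 fits that each left out 1 library and from 3 other alternatives. The causes were not tested. Depth limits Ly6g, Fpr1 and Fpr2, which had 5, 201 and 200 reads in all.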
